A study of Homo sapiens with 8 samples.

Results

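Desmosomes are the spot-like junctions that tie the keratin filaments of neighbouring epithelial cells together. Expression of 10 genes that build them was followed through RNA sequencing of MCF-10A, an established non-tumorigenic line of human breast epithelium. The genes were DSP, JUP, PKP1, PKP2, PKP3, DSG2, DSG3, DSC2, DSC3 and PERP. They were taken from the table of gene counts by their Ensembl identifiers as named desmosome components, and were 10 of 60617 genes in the table. All 10 were among the 17693 genes with enough counts to be tested. Poly(A)-selected RNA came from MCF-10A cells named Empty or NeuT. The labels do not say what the NeuT cells carry or whether either line is a pool or a single clone, and the series' design text speaks of transformed cells. Each line was left untreated or received 1 µM of JG-98, an allosteric inhibitor of the Hsp70 chaperones, for 12 h. Every culture was fed with epidermal growth factor, horse serum, hydrocortisone, insulin and cholera toxin. The groups were therefore untreated Empty, Empty with JG-98, untreated NeuT and NeuT with JG-98, with 2 libraries each. The untreated cells are not stated to have received the drug's vehicle.

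In a desmosome, cadherins of the desmoglein (DSG) and desmocollin (DSC) families cross the membrane and bind those of the next cell. Inside the cell their tails hold plakoglobin (JUP) and the plakophilins (PKP), and these hold desmoplakin (DSP), which grips the keratin filaments. PERP is a small membrane protein needed for desmosomes in stratified epithelia and a known target of p63. DSG2 and DSC2 are the desmosomal cadherins of simple epithelia and of most epithelial cells. DSG3 and DSC3 are characteristic of the basal layers of stratified epithelia, and breast basal cells carry them too.

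The libraries held 37341458 to 56861971 counted reads. Replicates differed beyond sampling noise in every group, with a chi-square per gene of 3.51 to 14.5, the highest in NeuT with JG-98. Nothing in the labels says that replicates were separate cultures, so p-values measure only the spread between these libraries, which may be technical. All 8 basal breast markers, KRT5, KRT14, KRT17, TP63, EGFR, CDH3, ITGB4 and LAMB3, reached 1 CPM in every library; CPM is a gene's read number relative to the library's total after edgeR's scaling. Their summed level was 17973 to 18630 CPM in Empty and 21286 to 22084 CPM in NeuT, and 6 were called higher in NeuT and 1 lower untreated, and 6 and 2 under JG-98. Of 8 luminal breast markers, 7 reached 1 CPM in every library. Their sum was 2839 to 2917 CPM in untreated Empty and 3222 to 3363 CPM in untreated NeuT, while with JG-98 the lines overlapped at 2988 to 3016 and 2972 to 3102 CPM. Untreated, 2 luminal markers were called higher in NeuT and 2 lower, and under JG-98 1 and 3. The luminal keratin gene KRT18 was at 662 to 746 CPM in Empty and 878 to 977 CPM in NeuT, and EPCAM, an epithelial adhesion molecule, at 196 to 223 and 93.5 to 101 CPM. Of 10 mesenchymal markers, 7 reached 1 CPM in every library. The summed level of the 10 was 506 to 543 CPM in the 4 Empty libraries against 2134 to 2678 CPM in the 4 NeuT libraries. Most of that sum was FN1 (fibronectin), at 377 to 420 CPM in Empty and 1906 to 2408 CPM in NeuT, and the other 9 summed to 120 to 129 and 228 to 270 CPM, mostly SNAI2 at 80.2 to 86.1 and 166 to 213 CPM. FN1, VIM, SNAI2, ZEB1, ZEB2 and TWIST1 were called higher in untreated NeuT, and the same genes except TWIST1 under JG-98, while CDH2, COL1A1, COL1A2 and PDGFRB were not called. Of all tested genes, 21.2% and 21.7% were called higher. SNAI2, ZEB1, ZEB2 and TWIST1 are also counted in the list of 6 repressors of epithelial genes. The summed level of 8 markers of stratified differentiation was 316 to 370 CPM in Empty and 159 to 188 CPM in NeuT. Here KRT10, a keratin of suprabasal layers, gave 210 to 235 CPM in Empty and 63.3 to 73.7 CPM in NeuT. The other 7 summed to 106 to 135 and 95.8 to 114 CPM, which overlapped over both treatments together. In untreated cells alone they summed to 106 to 109 CPM in Empty and 95.8 to 102 CPM in NeuT, which did not overlap. Of the 5 tested, 1 was called higher and 3 lower in untreated NeuT, and 0 and 3 under JG-98. Markers of leukocytes summed to 12.3 CPM or less and those of endothelium to 17.4 CPM or less. In bulk RNA, fewer cells of a type and less RNA per cell cannot be told apart, and the part of these marker differences in the results that follow was not tested.

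JUP and PERP were the most abundant of the 10 transcripts for their length. Levels between genes were compared as CPM per kilobase of exonic sequence. JUP lay at 190 to 261 and PERP at 177 to 233 CPM per kilobase, and these ranges overlapped. The cadherins DSG2, at 76.6 to 94.2, and DSG3, at 62.2 to 98.2 CPM per kilobase, followed and overlapped each other, and DSG3 also overlapped PKP3, at 57.7 to 72.3. DSP followed at 41.5 to 57.6 CPM per kilobase, with its highest library just below the lowest for PKP3. DSC2, at 20.4 to 22.8, PKP2, at 12.1 to 14.4, and DSC3, at 1.86 to 2.88 CPM per kilobase, stood apart from each other and from DSP. PKP1, the plakophilin of stratified skin, was close to the detection floor at 0.0113 to 0.11 CPM per kilobase, from 4 to 37 reads in a library. Within the desmogleins measured, DSG3 made up 43.1% to 51.0% of the summed level per length, and within the desmocollins DSC3 made up 7.6% to 12.3%. PKP3 supplied 81.9% to 84.9% of the plakophilin level per length and PKP1 0.145% at most.

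**Figure D1:**
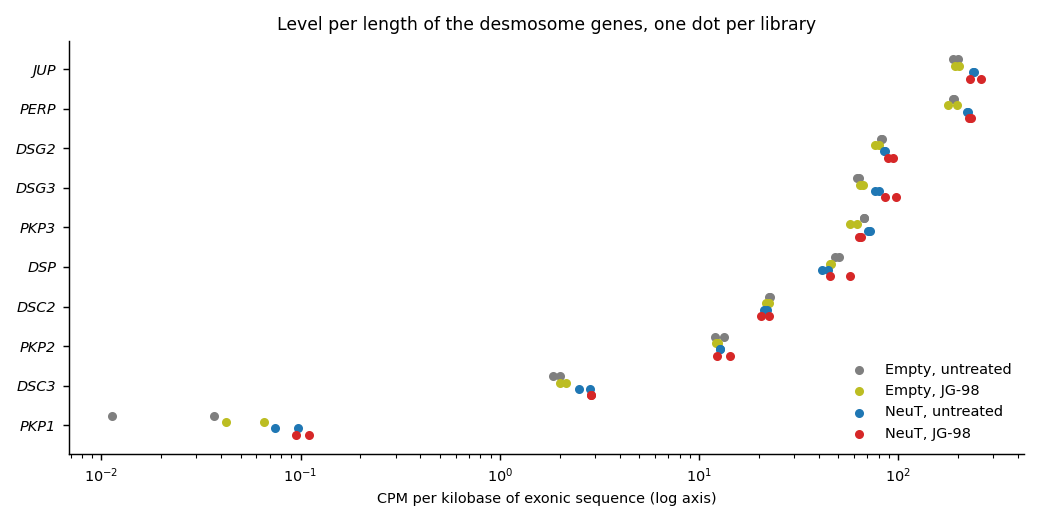
Level of each desmosome gene as CPM per kilobase of exonic sequence (log axis), with 1 dot per library coloured by line and treatment and genes ordered by their mean. JUP and PERP are highest, DSC3 lies near 2 to 3 and PKP1 at about 0.1 or below.

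The line comparison asked how NeuT cells differed from Empty cells. In untreated cells 5 of the 10 genes were higher in NeuT and 0 lower: plakoglobin (JUP), the basal-type cadherins DSG3 and DSC3, PERP and the scarcely expressed PKP1. Under JG-98, again 5 of 10 were higher and 0 lower, JUP, DSG2, DSG3, DSC3 and PERP. A gene was called when its p-value from edgeR's quasi-likelihood test, adjusted by the Benjamini-Hochberg method over all tested genes, was under 0.05. In untreated cells 42.0% of all tested genes were called, 21.2% with the higher level in NeuT and 20.8% with the lower. In treated cells the figures were 41.7%, 21.7% and 20.0%. The members' share of calls was thus near the background. The median log2 fold change of the 10 genes was 0.16 untreated and 0.26 under JG-98, against -0.02 and -0.0011 over all tested genes. By their libraries alone, 9 of 10 genes had NeuT and Empty values that did not overlap in untreated cells, 7 higher and 2 lower in NeuT, where 73.2% of all tested genes had the same. Under JG-98 it was 7 of 10, all higher in NeuT, against 67.6% of all tested genes. The untreated and JG-98 comparisons of the lines used different libraries.

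**Figure D2:**
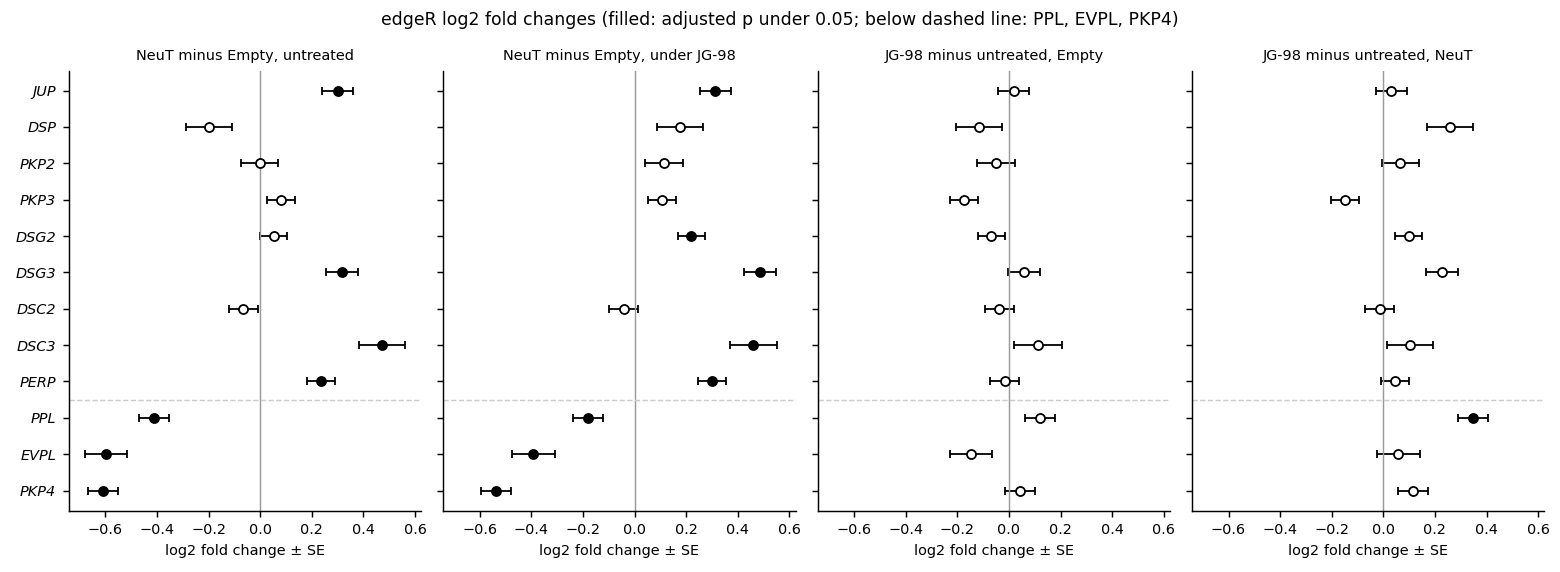
edgeR log2 fold changes with standard errors for 9 of the 10 desmosome genes and for PPL, EVPL and PKP4, in the 4 comparisons, each of 2 against 2 libraries; filled points have an adjusted p under 0.05, and PKP1 is left out for its wide error. JUP, DSG3, DSC3 and PERP have filled points above 0 in both line comparisons, whereas PPL, EVPL and PKP4 have filled points below 0.

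Among the plaque proteins, plakoglobin was higher in NeuT and desmoplakin was not. JUP, which links the cadherin tails to desmoplakin and can also stand in for beta-catenin at adherens junctions, gave 987 and 937 CPM in untreated Empty libraries and 1179 and 1191 CPM in untreated NeuT libraries. With JG-98 it gave 951 and 998 CPM in Empty and 1132 and 1290 CPM in NeuT. Every NeuT library was above every Empty library. The log2 fold change was 0.30 ± 0.06 (SE) untreated, with an edgeR adjusted p of 0.000684, and 0.31 ± 0.06 under JG-98, with an adjusted p of 0.00046. DSP, the filament-binding plaque protein, gave 484 and 510 CPM in untreated Empty libraries against 449 and 417 CPM in untreated NeuT libraries. Its untreated Empty libraries were thus the higher pair, by a log2 difference of -0.20 ± 0.09 (NeuT minus Empty, SE) that missed the threshold with an edgeR adjusted p of 0.0981. It passed in 5 of 17 alternative analyses, among them those without NeuT with JG-98 replicate 1 (0.00125) or replicate 2 (0.00123), neither of which belongs to the libraries compared. Under JG-98, DSP gave 461 and 455 CPM in Empty and 457 and 579 CPM in NeuT, so the groups overlapped, and the difference was 0.18 ± 0.09 with an adjusted p of 0.139. This value moved with single libraries: it was 0.35 with an adjusted p of 6.65e-06 without NeuT with JG-98 replicate 1 and -0.0033 without replicate 2. With all libraries kept it passed when no low-count filter was applied (0.19, adjusted p 0.00661). A library left alone in its group by such an omission is assumed to vary like the other groups.

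The plakophilins, armadillo-repeat proteins that cluster desmoplakin and cadherins in the plaque, differed little between the lines where they were well measured. PKP3, which binds nearly all desmosomal cadherins, gave 257 and 256 CPM in untreated Empty and 269 and 274 CPM in untreated NeuT. With JG-98 it gave 219 and 236 CPM in Empty and 241 and 249 CPM in NeuT. Its NeuT libraries were the higher pair at both treatments, yet the log2 differences of 0.08 ± 0.05 and 0.11 ± 0.05 (SE) had adjusted p-values of 0.246 and 0.133. The untreated difference passed when only the libraries compared were fitted (log2 0.09, adjusted p 0.0316). Under JG-98 it passed without NeuT with JG-98 replicate 1, with an adjusted p of 0.0479. PKP2, the plakophilin of simple epithelia and heart, ranged from 85.4 to 101 CPM over all 8 libraries with overlapping groups. Its line difference was -0.0025 ± 0.07 untreated, with a 95% interval of -0.16 to 0.15, and 0.11 ± 0.07 under JG-98, with an interval of -0.04 to 0.27. Without NeuT with JG-98 replicate 1 the latter became 0.23 with an adjusted p of 0.00455. PKP1 was counted 4 and 13 times in untreated Empty, 33 and 25 times in untreated NeuT, 10 and 24 times in Empty with JG-98 and 37 and 32 times in NeuT with JG-98. The NeuT libraries were the higher ones, and the untreated log2 difference was 1.82 ± 0.53 with an adjusted p of 0.0101. That call was lost without untreated Empty replicate 1 (log2 1.22, adjusted p 0.111) or untreated NeuT replicate 1 (adjusted p 0.0694), and the difference under JG-98, 0.89 ± 0.48, was not called (adjusted p 0.15).

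**Figure D3:**
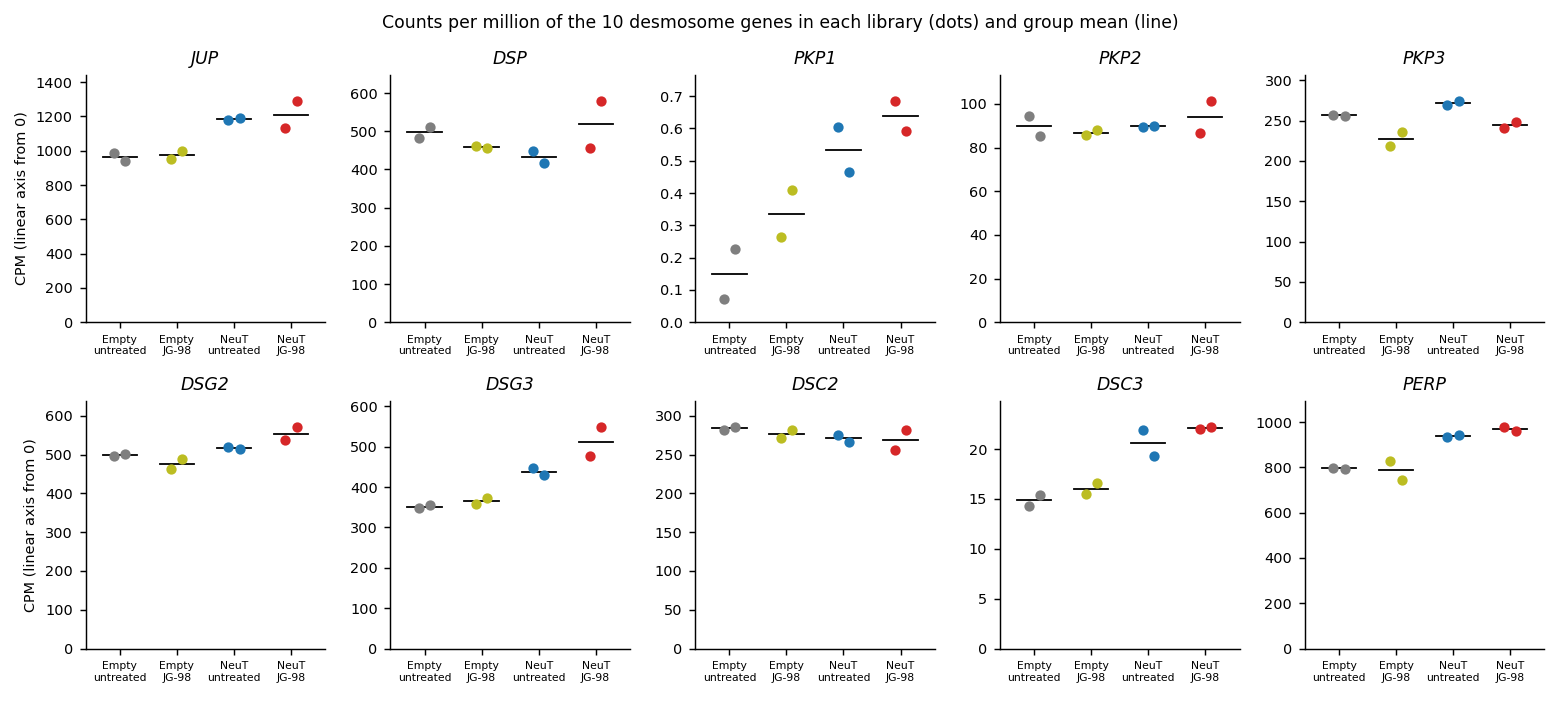
CPM of each of the 10 desmosome genes in the 8 libraries (dots; the line is the mean of 2 libraries; linear axes from 0). In JUP, PKP1, DSG2, DSG3, DSC3 and PERP all 4 NeuT dots lie above all 4 Empty dots. The dots of PKP2 overlap between lines. Those of DSC2 overlap over both treatments together but not in untreated cells, where NeuT is lower.

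The cadherin genes sit in a single cluster on chromosome 18, in the order DSC3, DSC2, DSC1, DSG1, DSG4, DSG3 and DSG2 by position on GRCh38. The desmocollins are read from the minus strand and the desmogleins from the plus strand. DSC3 spans chr18:30989365-31042815 and DSC2 chr18:31058840-31102522, while DSG3 spans chr18:31447741-31478702 and DSG2 chr18:31498177-31549008. The promoters of these 4 genes are shown because the basal-type member of each cadherin pair differed between the lines and its neighbour differed less or not detectably. PERP, called in both line comparisons, is shown beside them, while JUP, also called in both, is not shown. These windows were thus picked with the line differences known. The windows run from before to just after the start annotated by RefSeq on GRCh38.p14: DSG3 at chr18:31447491-31447790, plus strand, DSG2 at chr18:31497927-31498226, plus strand, DSC3 at chr18:31042693-31042992, minus strand, DSC2 (the first of 2 starts) at chr18:31102372-31102671, minus strand, and PERP at chr6:138107370-138107669, minus strand. Capitals mark matches, on either strand, to the E-box CAGGTG that SNAI and ZEB repressors bind, to the AP-1 motif TGANTCA and to the p63 half-site; none of the marked matches overlap.
DSG3: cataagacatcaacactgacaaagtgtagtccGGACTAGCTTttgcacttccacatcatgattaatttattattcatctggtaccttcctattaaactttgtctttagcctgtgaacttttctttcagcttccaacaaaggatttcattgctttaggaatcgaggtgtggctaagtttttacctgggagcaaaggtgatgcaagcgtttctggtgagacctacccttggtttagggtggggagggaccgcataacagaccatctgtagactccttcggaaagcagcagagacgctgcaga
DSG2: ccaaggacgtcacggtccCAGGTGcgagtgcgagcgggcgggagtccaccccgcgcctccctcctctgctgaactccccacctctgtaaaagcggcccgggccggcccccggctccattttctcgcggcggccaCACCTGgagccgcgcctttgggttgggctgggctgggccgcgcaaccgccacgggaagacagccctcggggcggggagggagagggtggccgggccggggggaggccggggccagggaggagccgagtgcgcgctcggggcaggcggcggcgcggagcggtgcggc
DSC3: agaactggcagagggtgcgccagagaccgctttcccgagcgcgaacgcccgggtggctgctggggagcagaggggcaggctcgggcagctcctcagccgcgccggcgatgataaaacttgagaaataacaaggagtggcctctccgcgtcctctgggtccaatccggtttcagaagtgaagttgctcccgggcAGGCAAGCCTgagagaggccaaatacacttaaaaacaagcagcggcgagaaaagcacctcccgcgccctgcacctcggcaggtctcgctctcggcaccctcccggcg
DSC2: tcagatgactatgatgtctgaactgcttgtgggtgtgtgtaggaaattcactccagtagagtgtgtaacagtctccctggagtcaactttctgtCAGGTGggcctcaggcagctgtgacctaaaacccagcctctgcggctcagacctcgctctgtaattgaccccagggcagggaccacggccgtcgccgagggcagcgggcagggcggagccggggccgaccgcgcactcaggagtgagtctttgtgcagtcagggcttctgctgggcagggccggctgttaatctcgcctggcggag
PERP: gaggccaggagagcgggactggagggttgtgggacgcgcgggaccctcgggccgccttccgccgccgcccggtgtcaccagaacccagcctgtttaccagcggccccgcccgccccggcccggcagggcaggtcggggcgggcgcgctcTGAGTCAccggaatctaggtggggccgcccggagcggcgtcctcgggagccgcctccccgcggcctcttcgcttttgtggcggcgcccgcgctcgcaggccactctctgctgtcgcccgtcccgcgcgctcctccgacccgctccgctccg

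In the windows shown, DSG2 and DSC2 carried the E-box and DSG3 and DSC3 did not, while DSG3 and DSC3 each carried a p63 half-site. The second start of DSC2, not shown, held no E-box. In DSG2 the E-box lay at -232 and -116 from the start, in DSC2 at -156. The half-site lay at -218 in DSG3 and at -57 in DSC3, and PERP held an AP-1 match at -101. Over the 10 RefSeq windows that matched 8 of the 10 genes, 4 held the E-box (DSP, the second start of JUP, DSG2 and the first start of DSC2), against 20.6% of 35116 windows in all. The half-site stood in 2 of the 10, against 6.63%, and AP-1 in 1, against 7.71%. The grainyhead-like motif AACCGGTT was in 0 of the 10, against 0.134%, and the GC box GGGCGG in 7, against 45.0%. A match is a description of letters in this window, not of a bound site.

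DSG3, the desmoglein that basal keratinocytes depend on and the antigen of pemphigus vulgaris, was higher in every NeuT library than in any Empty library. It gave 347 and 356 CPM in untreated Empty libraries and 446 and 429 CPM in untreated NeuT libraries. With JG-98 it gave 359 and 372 CPM in Empty and 478 and 548 CPM in NeuT. The log2 difference was 0.32 ± 0.06 (SE) untreated, with an edgeR adjusted p of 0.000471, and 0.49 ± 0.06 under JG-98, with an adjusted p of 5.96e-06. DSG2, its neighbour and the desmoglein found in nearly all epithelia, gave 497 and 502 CPM in untreated Empty and 520 and 516 CPM in untreated NeuT, values that did not overlap but lay close. The untreated difference was 0.05 ± 0.05, adjusted p 0.464, and turned to -0.02 when libraries were scaled by their total counts. With JG-98, DSG2 gave 464 and 488 CPM in Empty and 538 and 570 CPM in NeuT, and the difference of 0.22 ± 0.05 was called with an adjusted p of 0.00266. Every NeuT library was thus above every Empty library for DSG2 as well. DSG2 shares 3.07% of its exonic bases with the antisense gene DSG2-AS1, and the use of strand in the counting is not given in the sources used here.

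Of the desmocollins, DSC3 showed the larger difference and DSC2 was not called. DSC3, the desmocollin of basal layers, gave 14.3 and 15.4 CPM in untreated Empty and 21.9 and 19.3 CPM in untreated NeuT. With JG-98 it gave 15.5 and 16.6 CPM in Empty and 22.0 and 22.2 CPM in NeuT, again with every NeuT library above every Empty library. Among the members other than PKP1 its untreated difference was the largest, a log2 fold change of 0.47 ± 0.09 (SE) with an edgeR adjusted p of 0.000431, and under JG-98 it was 0.46 ± 0.09 with an adjusted p of 0.000543. DSC2, the widespread desmocollin, ranged from 256 to 285 CPM over the 8 libraries. In untreated cells it gave 282 and 285 CPM in Empty and 275 and 266 CPM in NeuT, so NeuT was the lower pair. With JG-98 it gave 271 and 281 CPM in Empty and 256 and 281 CPM in NeuT, which overlapped. Its untreated difference was -0.07 ± 0.06, with a 95% interval of -0.19 to 0.05, and under JG-98 it was -0.04 ± 0.06, with an interval of -0.16 to 0.08.

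PERP, on chromosome 6, gave 799 and 793 CPM in untreated Empty and 934 and 941 CPM in untreated NeuT. With JG-98 it gave 828 and 745 CPM in Empty and 977 and 959 CPM in NeuT. No NeuT library fell within the Empty range. The log2 difference was 0.24 ± 0.06 (SE) untreated, with an edgeR adjusted p of 0.00223, and 0.30 ± 0.06 under JG-98, with an adjusted p of 0.000289. The calls of JUP, DSG3, DSC3 and PERP in both line comparisons, and that of DSG2 under JG-98, were made in 17 of 17 alternative analyses.

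Ratios of partner genes within a library, which do not depend on how libraries are scaled, were formed for 4 pairs chosen after their values were seen and are therefore given as a description. The log2 ratio of DSG3 to DSG2 per length was -0.40 and -0.38 in untreated Empty, -0.25 and -0.27 in Empty with JG-98, -0.10 and -0.15 in untreated NeuT, and -0.05 and 0.06 in NeuT with JG-98. Basal-type desmoglein thus ran from 0.757 to 1.04 times the level of DSG2, with NeuT above Empty in every library. The log2 ratio of DSC3 to DSC2 was -3.60 and -3.51 in untreated Empty, -3.43 and -3.39 in Empty with JG-98, -2.95 and -3.09 in untreated NeuT, and -2.84 and -2.96 in NeuT with JG-98. Here too all NeuT libraries lay above all Empty libraries, by 0.54 untreated and 0.51 under JG-98 on average. JUP to DSP was higher in all NeuT libraries, by 0.50 untreated and 0.14 under JG-98. The separation under JG-98 was narrow, with the nearest libraries at 2.18 in NeuT and 2.16 in Empty. JUP has 4942 exonic bases and DSP 10048, and the part of replicate differences by transcript length in this ratio was not tested. PKP3 to PKP2, at 2.19 to 2.50, overlapped between the lines.

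**Figure D4:**
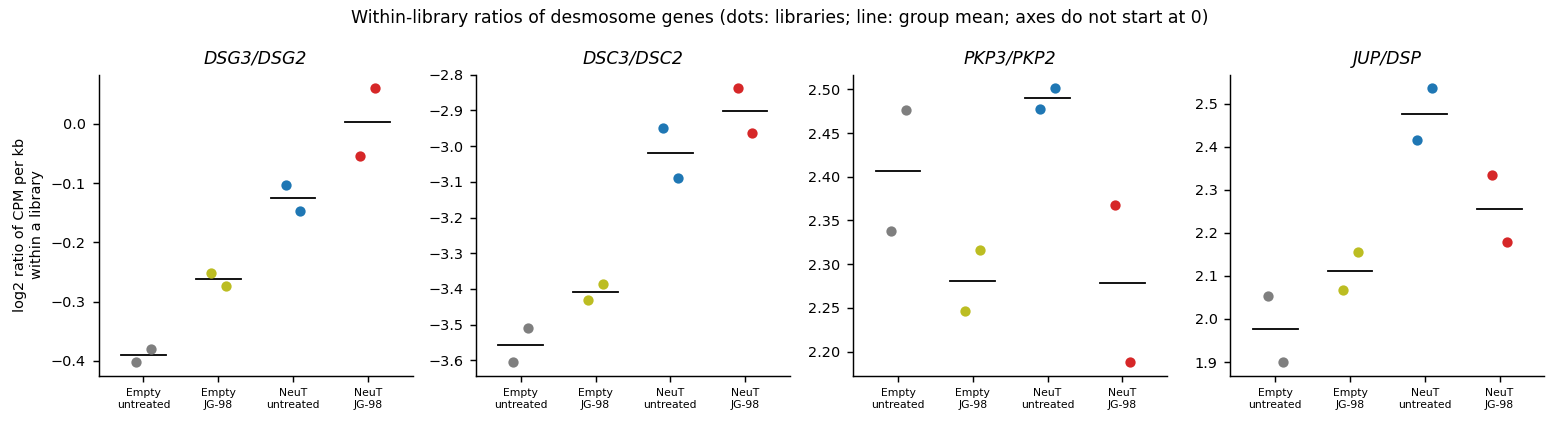
log2 ratio of the levels per length of 4 pairs of desmosome genes within each library (dots; the line is the mean of 2 libraries; axes do not start at 0). NeuT libraries lie above Empty libraries for DSG3/DSG2, DSC3/DSC2 and JUP/DSP, while PKP3/PKP2 overlaps.

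The drug comparison asked what 12 h of JG-98 did in each line. The number of desmosome genes called was 0 of 10 in Empty and 0 of 10 in NeuT by edgeR, with 2 and 3 at an unadjusted p under 0.05. Among all tested genes 0.339% were called in Empty and 3.01% in NeuT. DESeq2 called 0 members in Empty and 1 in NeuT, DSG3, with an adjusted p of 0.0206. Treated and untreated libraries did not overlap for 7 of the 10 genes in Empty, 3 higher and 4 lower with the drug, against 43.1% of all tested genes, and for 6 in NeuT, 5 higher and 1 lower, against 44.8%. The median log2 change of the 10 genes was -0.03 in Empty and 0.08 in NeuT. Each drug comparison shares its libraries with the line comparisons.

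DSG3 came closest in NeuT. Its treated NeuT libraries, 478 and 548 CPM, were above the untreated ones, 446 and 429 CPM, by a log2 change of 0.23 ± 0.06 (SE) with an edgeR adjusted p of 0.0554. Over 19 alternatives the adjusted p ran from 6.68e-05 to 0.485, with the lowest, at a change of 0.32, without NeuT with JG-98 replicate 1. With no library left out, the NeuT change passed without the low-count filter (edgeR adjusted p 0.00424), by DESeq2 (0.0206) and with the replicate number as a block (edgeR, 0.0383). A crossed block in the NeuT libraries, chosen after seeing the data, gave an edgeR adjusted p of 0.0243. In Empty the change was 0.06 ± 0.06, with a 95% interval of -0.07 to 0.19. The authors' deposited table gives a log2 change of 0.23 and an adjusted p of 0.0575 for DSG3 in NeuT. PKP3 was lower in both treated pairs, by -0.17 ± 0.05 in Empty (adjusted p 0.247) and -0.15 ± 0.05 in NeuT (adjusted p 0.17). The Empty value passed when either NeuT with JG-98 library was left out, with adjusted p-values of 0.0429 without replicate 1 and 0.043 without replicate 2. For JUP the 95% interval of the log2 change was -0.11 to 0.15 in Empty and -0.10 to 0.16 in NeuT. For PERP it was -0.13 to 0.10 and -0.07 to 0.16. PKP2, DSC2 and DSC3 gave log2 changes of -0.05, -0.04 and 0.11 in Empty and of 0.07, -0.01 and 0.10 in NeuT. PKP1, at 1.19 ± 0.56 in Empty and 0.26 ± 0.45 in NeuT, was too scarce for a narrow estimate.

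For DSP and DSG2 the treated libraries stood on opposite sides of the untreated ones in the 2 lines, and the test of that difference was not passed in the analysis reported. Both treated Empty libraries lay below both untreated ones, for DSP 461 and 455 against 484 and 510 CPM. Both treated NeuT libraries lay above, for DSP 457 and 579 against 449 and 417 CPM. The change of DSP was -0.12 ± 0.09 (SE) in Empty and 0.26 ± 0.09 in NeuT, and the interaction, the change in NeuT minus that in Empty, was 0.37 ± 0.13 with an edgeR adjusted p of 0.544. For DSG2 the changes were -0.07 ± 0.05 and 0.10 ± 0.05, and the interaction was 0.17 ± 0.07 with an adjusted p of 0.607. In the interaction 0 of 10 members were called by edgeR and 0 by DESeq2, 2 had an unadjusted p under 0.05, and 0.00565% of all tested genes, a single gene, were called. With all libraries kept and no low-count filter, the DSP interaction passed at 0.38 (adjusted p 0.00216) and its change in NeuT at 0.26 (adjusted p 0.000656). The DSP value also moved with the NeuT libraries with JG-98, which differed by 0.34 on the log2 scale for DSP: without replicate 1 the interaction was 0.53 with an adjusted p of 3.9e-05, and the change in NeuT was 0.42 with an adjusted p of 4.07e-06. Without replicate 2 the change in NeuT was 0.07. The interaction of DSG3, 0.17 ± 0.09, also passed without replicate 1 (adjusted p 0.0237). Replicate 2 of this group was higher than replicate 1 for long transcripts in general, with a median log2 difference of 0.08 among genes with at least 7492 exonic bases and of -0.08 among those with at most 2991, and DSP has 10048 exonic bases. The part of this length pattern in the DSP result was not tested.

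Of 7 further desmosome genes, 5 were tested, and 3 were called lower in NeuT and 0 higher at either treatment. Of all tested genes, 20.8% were called lower untreated and 20.0% under JG-98. The 3 were the plakins PPL (periplakin) and EVPL (envoplakin), which tie desmosomes and the cornified envelope to keratins, and PKP4, an armadillo-repeat relative found at both desmosomes and adherens junctions. PPL gave 159 and 166 CPM in untreated Empty and 122 and 123 CPM in untreated NeuT, and with JG-98 180 and 173 CPM in Empty and 148 and 163 CPM in NeuT. Its NeuT libraries were lower at each treatment, with log2 differences of -0.41 ± 0.06 (SE; edgeR adjusted p 2.45e-05) untreated and -0.18 ± 0.06 (adjusted p 0.0197) under JG-98. The second call was lost without Empty with JG-98 replicate 1 (adjusted p 0.118) or NeuT with JG-98 replicate 1 (log2 -0.10, adjusted p 0.151), and when only the libraries compared were fitted (adjusted p 0.0886). EVPL gave 61.4 and 62.5 CPM in untreated Empty and 38.8 and 43.2 CPM in untreated NeuT, a log2 difference of -0.60 ± 0.08 with an adjusted p of 1.79e-05, and under JG-98 the difference was -0.39 ± 0.08 with an adjusted p of 0.00103. PKP4 gave 82.4 and 84.1 against 54.5 and 54.7 CPM, a difference of -0.61 ± 0.06 with an adjusted p of 2.38e-07, and -0.54 ± 0.06 under JG-98 with an adjusted p of 1.08e-06. The summed level of the stratified differentiation markers was also lower in NeuT, mostly through KRT10, and its part in these differences was not tested.

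PPL was also the desmosome gene called for the drug. In NeuT its log2 change with JG-98 was 0.35 ± 0.06 (SE) with an edgeR adjusted p of 0.00277, and in Empty it was 0.12 ± 0.06 with an adjusted p of 0.53. The interaction was 0.23 ± 0.08 with an adjusted p of 0.554, so the lines were not shown to differ, though it passed without NeuT with JG-98 replicate 1 (adjusted p 0.0178). The NeuT call was lost without untreated NeuT replicate 1 (adjusted p 0.0882) or replicate 2 (0.0914). The desmosomal cadherins of differentiated skin layers were nearly silent, with 0 to 12 reads per library for DSG1, 2 to 16 for DSG4 and 0 to 8 for DSC1, and 0 to 2 for corneodesmosin (CDSN), of whose exonic bases 93.7% are shared with PSORS1C1. For DSG1 and DSG4 the log2 differences between the lines were -0.80 and 0.13 untreated and -2.55 and 1.64 under JG-98 from these few reads. None of these 4 genes was called, and DSC1 and CDSN had too few reads to be tested.

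Neighbouring junctions and the filaments that desmosomes anchor gave the following counts for untreated NeuT against Empty, beside 42.0% of all tested genes called, 21.2% higher and 20.8% lower. Of 10 adherens junction genes, 6 were called higher and 2 lower, led by NECTIN1 (log2 0.77 ± 0.06), NECTIN4 (0.56 ± 0.11) and the actin linker VCL (0.40 ± 0.06). E-cadherin (CDH1) was higher by 0.22 (edgeR adjusted p 0.0059), and CTNNB1, at 0.04, was not called. Of 6 hemidesmosome genes, which fix the cell to its basement membrane, 3 were called higher and 0 lower: COL17A1 (1.6 ± 0.07), ITGA6 (0.63 ± 0.06) and ITGB4 (0.47 ± 0.06). Of 12 tight junction genes, 1 was called higher and 3 lower, MARVELD3 (-0.83 ± 0.08), TJP3 (-0.76 ± 0.10) and CLDN7 (-0.45 ± 0.05). Of 12 keratins, 7 were called higher and 3 lower, led by KRT6B (1.95 ± 0.07), KRT6C (1.37 ± 0.11) and KRT6A (0.82 ± 0.05), near-identical paralogs between which reads may be split uncertainly. Other abundant keratins were lower without overlap of libraries. Mean CPM in Empty and NeuT were 955 and 693 for KRT16, 5933 and 4646 for KRT17, and 5563 and 4531 for KRT7. The list medians were 0.21, 0.41, -0.10 and 0.34 in this order, beside -0.02 for all tested genes. Under JG-98, where 41.7% of all tested genes were called, the calls were 6 higher and 0 lower, 4 and 0, 3 and 4, and 6 and 4, with medians of 0.21, 0.58, 0.18 and 0.18. The tight junction median had a different sign from the untreated one.

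Regulators of epithelial genes and enzymes acting on desmosomal proteins were counted in 3 lists, beside 42.0% of all tested genes called between the lines untreated and 41.7% under JG-98. Of 6 repressors of epithelial genes, 5 were called higher in untreated NeuT and 1 lower. ZEB2 (log2 2.06 ± 0.12) and ZEB1 (1.48 ± 0.19) were higher and SNAI1 (-2.01 ± 0.14) lower, while SNAI2 was higher by 1.06. Under JG-98, 3 were called higher and 1 lower. Of 10 epithelial transcription factors, 2 were called higher and 5 lower untreated, with TP63, the master regulator of basal epithelia, higher by 1.45 ± 0.14 from 2.74 CPM to 7.50 CPM. GRHL1 (-1.07 ± 0.11) and OVOL1 (-0.98 ± 0.25) were lower, and OVOL1 was not called without untreated NeuT replicate 2 (adjusted p 0.0768). Under JG-98, 3 were called higher and 5 lower, ELF3 among the latter (-0.69 ± 0.06). Of 8 genes that cleave, modify or phosphorylate desmosomal proteins, 4 were called higher and 2 lower untreated. TGM1 (-0.66 ± 0.07), a transglutaminase of the cornified envelope, and PRKCA (-0.41 ± 0.09) were lower and the palmitoyltransferase gene ZDHHC8 (0.44 ± 0.06) higher, and PRKCA was not called without untreated NeuT replicate 1 (adjusted p 0.0503). Under JG-98, 5 were called higher and 2 lower, with EGFR (0.56 ± 0.08) and the sheddase ADAM17 (0.53 ± 0.07) among the higher. The medians of these 3 lists were 0.73, -0.05 and 0.15 untreated and 0.70, -0.13 and 0.22 under JG-98. The values named here had edgeR adjusted p-values of 0.00455 or less in their comparison.

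**Figure D5:**
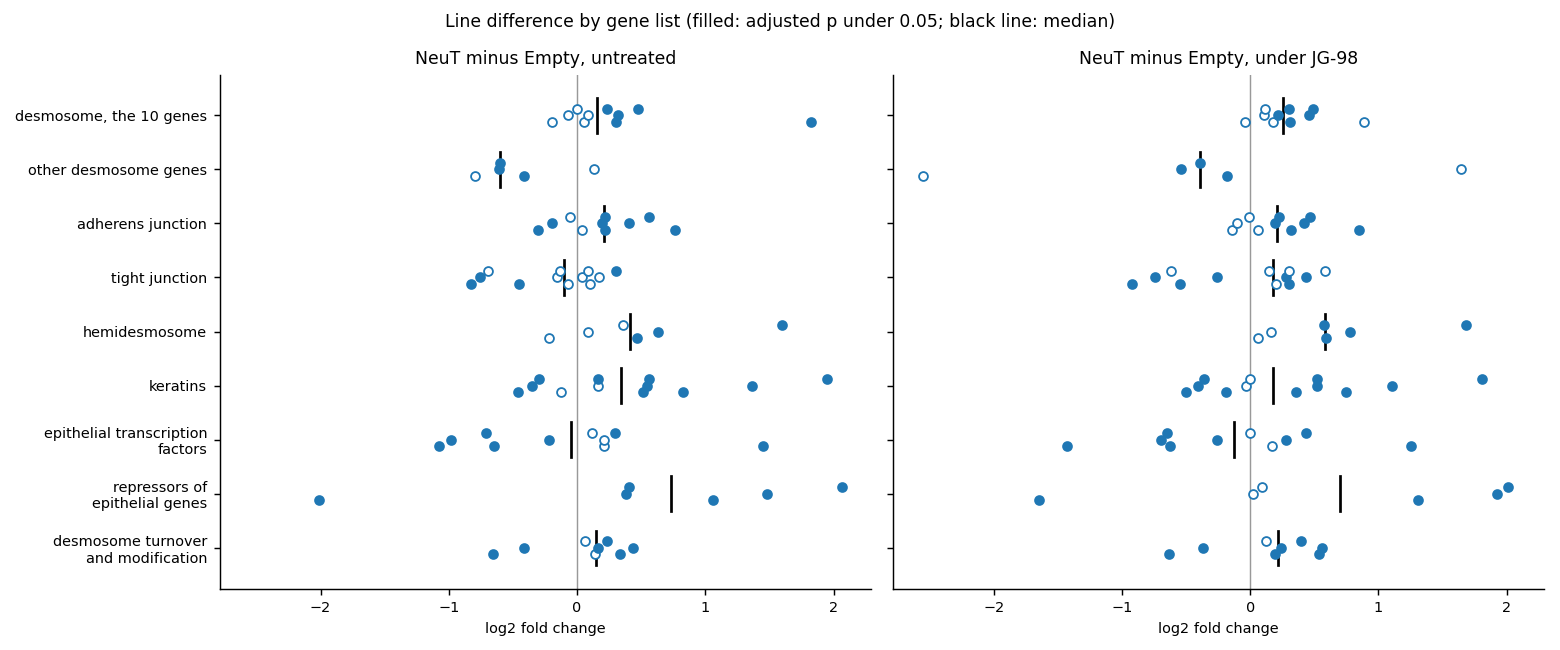
log2 fold changes of NeuT against Empty for each tested gene of 9 lists, untreated (left) and under JG-98 (right); filled dots have an adjusted p under 0.05 and black lines are list medians. The 10 desmosome genes have medians of 0.16 and 0.26 and no filled dot below 0, and the other desmosome genes have medians of -0.60 and -0.39.

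With JG-98 in Empty, 0 genes of any of these 7 lists were called, beside 0.339% of all tested genes. In NeuT, where 3.01% of all tested genes were called, 3 were, CLDN1 (log2 0.54 ± 0.08, edgeR adjusted p 0.00185), SNAI2 (0.28 ± 0.06, adjusted p 0.0114) and KLF5 (0.24 ± 0.06, adjusted p 0.0248). The SNAI2 call was lost without untreated NeuT replicate 1 (adjusted p 0.0954) or replicate 2 (0.275), and when only the libraries compared were fitted (0.0667). The KLF5 call was lost without either untreated Empty replicate, either untreated NeuT replicate or NeuT with JG-98 replicate 2, and when only the libraries compared were fitted, with adjusted p-values of 0.0651 to 0.325.

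Profiles over the 8 libraries were centred log2 values of CPM plus 0.5. Among 13107 genes searched, the gene whose profile was nearest to a member's lay at a root mean square difference of 0.0151 (NCLN for PKP3) to 0.0941 over the 10 members. For the 3 members with the largest line difference it was RETREG3 for DSC3 (0.0365), MCL1 for DSG3 (0.0226) and AMZ2P1 for PKP1 (0.0941). The added 0.5 flattens the profile of PKP1, which lay at 0.07 to 0.68 CPM. AMZ2P1 differed between the lines by a log2 fold change of 0.57 untreated and 0.40 under JG-98, against 1.82 and 0.89 for PKP1. The profiles share their libraries and with them the line difference, and this closeness is a description of 8 points.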

How the data were processed

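Gene expression in 8 libraries of MCF-10A cells (Empty or NeuT, untreated or with JG-98, 2 replicates each) was analysed from the raw read counts for each gene that the authors deposited. Groups came from the sample titles. Per the submitters' processing notes, Trim Galore 0.5.0, FastQC 0.11.7, HISAT2 2.1.0, SAMtools 1.9, featureCounts 1.6.3 and limma were used with hg38. Whether strand was used, and how multi-mapping reads were treated, is not given in the sources used here. The authors also deposited 2 tables of log2 fold changes with p-values for the drug comparisons, of which only what the text names was used. Depth was 37341458 to 56861971 counts per library.

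Gene symbols came from a table of Ensembl identifiers, which named 60261 of 60617. Counts were filtered with filterByExpr, scaled by TMM and tested with edgeR 4.0.16 (quasi-likelihood, robust, R 4.3.3) in 1 model of 4 groups over all libraries, with Benjamini-Hochberg adjustment over 17693 genes. SEs are the log2 fold change divided by the square root of F, and 95% intervals use the test's degrees of freedom. CPM are TMM-scaled. Exonic lengths came with the count table, per the file headers. Alternatives were RLE or total-count scaling, no filter, at least 10 counts in every library, DESeq2, limma-voom, no robust estimation, a fit of only the libraries compared, the replicate number as a block, and leaving out each of 8 libraries. The replicate numbers, which the titles give, were not shown to pair the samples: deviations of same-numbered libraries correlated at -0.102 to 0.246.

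The members and gene lists were chosen with earlier results of these data known, and 1 further list is not reported here. Named are all 10 members, 7 further desmosome genes, and from each other list up to 3 called genes per comparison with a mean of at least 50 counts and the largest change. CDH1, CTNNB1, SNAI2, KRT16, KRT17 and KRT7 in the line comparison were named outside this rule after their values were seen. Promoter windows came from RefSeq and matched 8 of 10 members. No column of per-sample values was left unmatched.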

Additional observations from a re-analysis of the deposited data

How the results depend on the processing

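The calls of JUP, DSG3, DSC3 and PERP in both line comparisons, and of DSG2 under JG-98, were made in 17 of 17 alternatives. Main counts of members called were 5 and 5 for the lines, and 0 for JG-98 in Empty, JG-98 in NeuT and the interaction. With no low-count filter the lines under JG-98 gave 6 (DSP added), JG-98 in NeuT 2 (DSP and DSG3) and the interaction 1 (DSP). DESeq2 gave 1 in NeuT and the replicate block 1 (DSG3 in both). A crossed replicate block in the 4 NeuT libraries, chosen after seeing the data, gave 2 members and 943 genes, and the same-numbered block there 0 and 363. The block changed no other member's call. For the untreated lines the count ran from 4 (at least 10 counts, or without replicate 1 of either untreated line) to 7 with only the libraries compared. Leaving out each library in turn gave 5 to 8 members for the lines under JG-98, 0 to 1 for JG-98 in Empty, 0 to 2 in NeuT and 0 to 2 in the interaction. The cause was not tested.

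Over all genes, JG-98 in Empty called 60, against 282 with no filter, 144 by DESeq2, 205 with only the libraries compared and 9 to 417 when a library was left out. In NeuT the count was 533, against 1000, 674, 185 and 132 to 2133, and in the interaction 1, against 138 with no filter, 25 by DESeq2, 2 with total counts, 3 without robust estimation and 1 to 777. Total-count scaling moved the share of line calls that were higher in NeuT from 50.5% to 40.7% untreated and from 52.0% to 41.0% under JG-98, with median shifts of -0.069 and -0.075.

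Small log2 differences, none called in the analysis reported, changed sign. For PKP2 untreated the value was 0.0058 with RLE, 0.0080 with at least 10 counts, 0.0063 by DESeq2 and 0.0025 with only the libraries compared, and for DSG2 untreated it was -0.017 with total counts. Without 1 library the ranges that spanned 0 were -0.075 to 0.073 for PKP2 untreated. Under JG-98 they were -0.11 to 0.033 for DSC2, -0.0033 to 0.35 for DSP and -0.0025 to 0.23 for PKP2. With JG-98 in Empty they were -0.020 to 0.056 for JUP, -0.095 to 0.056 for PERP and -0.12 to 0.025 for PKP2, and in NeuT -0.091 to 0.051 for DSC2, -0.074 to 0.12 for JUP and -0.059 to 0.17 for PKP2. In the interaction they were -0.058 to 0.084 for DSC2, -0.11 to 0.077 for DSC3, -0.097 to 0.097 for JUP, -0.0097 to 0.14 for PERP, -0.015 to 0.22 for PKP2 and -0.028 to 0.080 for PKP3.

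Each group had 2 libraries. After adjustment over all tested genes, differences of several standard errors could be left uncalled, as for DSG3 with JG-98 in NeuT (0.23 ± 0.06). In that comparison 533 genes were called, against 7423 for the untreated lines. PKP1, at 4 to 37 reads, was limited by depth.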
